A study of Mus musculus with 20 samples.

Results

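Brain RNA of mice labelled J17b was compared with brain RNA of mice labelled J27b, over every expressed gene. J17b had 2 libraries and J27b had 3, so the comparison rests on 5 of the 20 libraries of the series. Of the 23845 genes in the tables, 16063 passed a filter on low counts and were tested, and those with the smallest p and the largest difference are given below with their value in each library. Every mouse was labelled strain C57/Bl6J and kept on a normal diet, with no treatment named. The other groups, with 3 libraries each, were J17a, J27a, J1 lf/lf, J2 lf/lf and Wild type. By its design text, the series set controls beside mice with a knockout of single isoforms, to look at exon usage and describe the model. The labels do not explain the codes, do not state if a named form is the one deleted or the one left, and give no age. The first digit of a code is read here as the JNK gene, so that J17b is the JNK1 line and J27b the JNK2 line of the 7b pair. Separate animals are not stated for the libraries within a group, and the p-values therefore cover the spread between these samples alone, which may be technical.

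JNK1, JNK2 and JNK3 are the c-Jun N-terminal kinases, encoded by Mapk8, Mapk9 and Mapk10. They are switched on by stress and cytokines when the kinases MKK4 and MKK7 (Map2k4 and Map2k7) phosphorylate them, and they in turn phosphorylate c-Jun, ATF2 and, in neurons, proteins of microtubules and neurofilaments. JNK3 is the member found mainly in neurons, while JNK1 and JNK2 are made in most tissues. Transcripts of Mapk8 and Mapk9 use either of a pair of mutually exclusive exons, known as 7a and 7b, that code for part of the kinase domain near the substrate-binding region.

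The exon pairs of Mapk8 and Mapk9 are shown because the codes of the lines name them. Each exon has 72 bases in the GENCODE mouse release 21 annotation of mm10. They are written 5′ to 3′ on the strand of the gene, with the bases that differ from the other exon of the same pair in capitals.
Mapk8 upstream exon, chr14:33390673-33390744, minus strand: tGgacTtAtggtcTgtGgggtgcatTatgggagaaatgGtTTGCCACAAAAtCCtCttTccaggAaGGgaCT
Mapk8 downstream exon, chr14:33390242-33390313, minus strand: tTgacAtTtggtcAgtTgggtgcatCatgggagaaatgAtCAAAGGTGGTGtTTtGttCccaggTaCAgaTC
Mapk9 upstream exon, chr11:49873836-49873907, plus strand: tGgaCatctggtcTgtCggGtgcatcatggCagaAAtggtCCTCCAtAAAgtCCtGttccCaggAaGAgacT
Mapk9 downstream exon, chr11:49874264-49874335, plus strand: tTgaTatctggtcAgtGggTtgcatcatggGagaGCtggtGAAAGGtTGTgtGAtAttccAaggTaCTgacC
The exons of the Mapk8 pair differ at 27 bases and share 45, and those of the Mapk9 pair differ at 25 and share 47. The annotation does not say which exon of a pair is 7a and which is 7b. The counts are per gene, so the use of either exon was not analysed here.

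The 5 libraries held 21761943 to 30569978 estimated counts, within the range of the 20, from 21395041 to 33828755. Brain transcripts were abundant in all 5: Mbp of myelin stood at 2902 to 3436 CPM (counts scaled to library size), Camk2a of forebrain neurons at 1838 to 2356 CPM and Gfap of astrocytes at 197 to 237 CPM. J17b replicate 2 stood apart from the other 4 libraries. Over the 13089 genes with a mean log2 CPM of at least 1, the median difference between a pair of J27b libraries was 0.0900 to 0.0920 on the log2 scale. J17b replicate 1 differed from the J27b libraries by 0.106 to 0.107, and J17b replicate 2 by 0.151 to 0.156. The J17b libraries differed from each other by 0.151, more than J17b replicate 1 differed from any J27b library. Results that rest on J17b replicate 2 are given with and without it or library by library. These are bulk samples, so fewer cells of a type and less RNA per cell cannot be told apart.

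The JNK genes themselves came first. Mapk8 stood at 74.6 and 79.2 CPM in the J17b libraries, and at 111, 104 and 111 CPM in the J27b libraries. The groups did not overlap, and the 15 libraries of the other groups ran from 102 to 140.4 CPM, above both J17b libraries. Mapk8 in J17b was 70.8% of its mean in J27b, a log2 difference of −0.50 ± 0.10 (SE; 95% interval −0.71 to −0.29). It was next after Ide and Btaf1 by p among the genes lower in J17b, and edgeR's adjusted p of 0.276 over all genes did not pass 0.05. DESeq2 gave an adjusted p of 0.0124 for it, and edgeR with only these 5 libraries gave 0.00894. The Mapk8 difference was −0.11 between J17a and J27a and 0.06 between J1 lf/lf and J2 lf/lf, comparisons that share no library with J17b against J27b.

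Mapk9 stood at 317 and 317 CPM in J17b, and at 274, 277 and 278 CPM in J27b. Both J17b libraries lay above all 3 J27b libraries, and the log2 difference was 0.20 ± 0.29 (SE; 95% interval −0.43 to 0.83), with an adjusted p of 0.947 by edgeR. The fit takes its spread from all groups, and Mapk9 ran from 58.1 to 177 CPM in J2 lf/lf. The adjusted p was 0.936 with those libraries left out and 0.209 with the 5 libraries alone. Mapk10 stood at 369 and 366 CPM in J17b and at 384, 369 and 360.4 CPM in J27b. The Mapk10 libraries of the groups overlapped, with a log2 difference of −0.02 ± 0.07 (SE).

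Levels of the JNK genes can be set against each other only per transcript length, as TPM. In J17b, Mapk8 was at 30.8 and 34.5 TPM, Mapk9 at 163 and 172 TPM, and Mapk10 at 120.3 and 126 TPM. In J27b, Mapk8 was at 43.0 to 46.3 TPM, Mapk9 at 141 to 145 TPM and Mapk10 at 119 to 125 TPM. The order Mapk9, Mapk10, Mapk8 held in each of the 5 libraries.

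**Figure D1:**
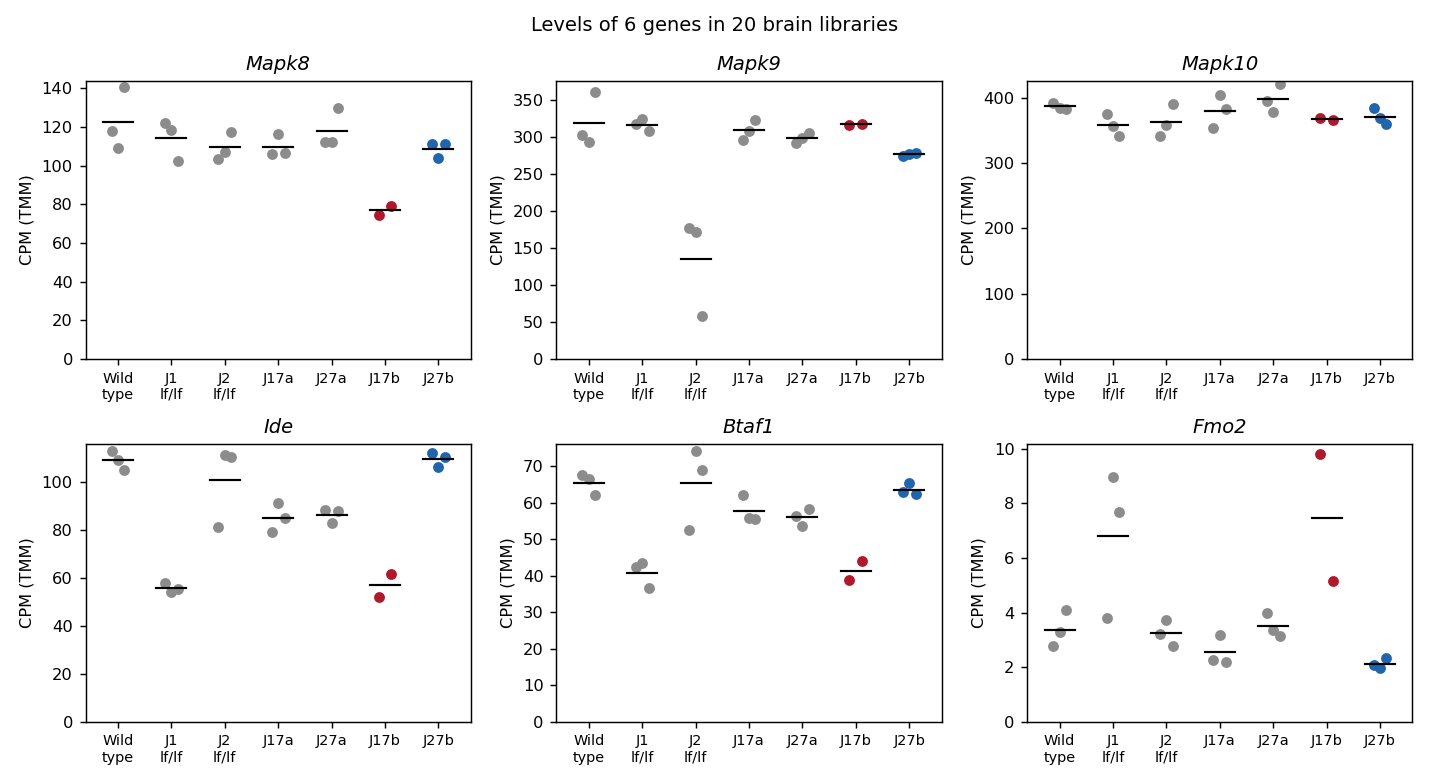
CPM with TMM factors (y axis) of Mapk8, Mapk9, Mapk10, Ide, Btaf1 and Fmo2 in the 20 libraries by group (x axis). Each point is a library and the bar is the group mean, with J17b in red and J27b in blue. Mapk8 in J17b lies below every other library, and Ide and Btaf1 are low in J17b and J1 lf/lf.

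Across all genes, 2 of 16063 (0.0125%) passed an adjusted p of 0.05 in edgeR's quasi-likelihood test. Ide was lower in J17b and Fmo2 was higher. At an unadjusted p under 0.05 there were 917 genes (5.71%), of which 540 were higher in J17b (3.36%) and 377 lower (2.35%). Of these 917, the libraries of the groups did not overlap for 846, or 92.3%. Among all tested genes, the libraries did not overlap for 4386 (27.3%), 2185 higher (13.6%) and 2201 lower (13.7%). The median log2 difference of all genes was −0.0016.

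Ide, the insulin-degrading enzyme, a protease that also cleaves amyloid beta peptides, fell in J17b. It stood at 51.9 and 61.7 CPM in J17b, and at 112, 106 and 110.2 CPM in J27b. The groups lay far apart relative to their spread, with J17b at 52.0% of J27b and a log2 difference of −0.95 ± 0.11 (SE; adjusted p = 0.000252, edgeR). J27b was at the level of Wild type, which ran from 105 to 113 CPM, and J17b lay below Wild type (log2 difference −0.94, adjusted p = 0.000271, edgeR). Without J17b replicate 1 the adjusted p was 0.082, with a log2 difference of −0.83.

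The same contrast of a JNK1 with a JNK2 line gave a difference of like size for Ide in the lf/lf lines and none of that size in the 7a lines. Ide ran from 54.2 to 57.9 CPM in J1 lf/lf and from 81.2 to 111 CPM in J2 lf/lf, a log2 difference of −0.86 (adjusted p = 6.53e-05, edgeR). It ran from 79.1 to 91.1 CPM in J17a and from 82.7 to 88.3 CPM in J27a, where the libraries overlapped and the difference was −0.02. Taken from the J17b to J27b difference, the J17a to J27a difference left −0.92 ± 0.14 (log2, SE; edgeR's adjusted p = 0.0267). Ide was the 1 gene of 16063 (0.00623%) called in that test, and it was not called once replicate number entered the fit. The call was lost with limma (adjusted p = 0.128 to 0.348) and without any 1 library other than J17a replicate 1 and J17b replicate 2 (0.0714 to 0.164).

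Fmo2, a flavin-containing monooxygenase that oxidises foreign compounds, rose in J17b. It stood at 9.79 and 5.14 CPM in J17b, and at 2.07, 1.98 and 2.34 CPM in J27b. Both J17b libraries were above all 3 of J27b, though the J17b libraries differed from each other by more than J27b's did, and the mean was 3.51-fold that of J27b. The log2 difference was 1.81 ± 0.30 (SE; adjusted p = 0.0433, edgeR). Fmo2 ran from 2.76 to 4.08 CPM in Wild type, so J27b lay below and J17b above it, by −0.66 and 1.15 on the log2 scale, with neither passing the test. The call was lost without J17b replicate 1 (1.27, adjusted p = 0.29), without each J27b library in turn, with the J2 lf/lf libraries left out of the fit (1.81, adjusted p = 0.0608) and with limma in each form run (adjusted p = 0.195 to 0.328, with 1.32 on the log2(TPM + 1) scale). The difference was 1.08 between J1 lf/lf and J2 lf/lf (adjusted p = 0.198) and −0.46 between J17a and J27a (unadjusted p = 0.117).

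Genes beside Ide on chromosome 19 were among the top ranks as well. Ide lies at 37268743 to 37337852 (mm10, minus strand). Btaf1, which encodes an ATPase that removes TATA-binding protein from DNA, lies at 36926079 to 37012752 on the plus strand. It stood at 38.8 and 43.9 CPM in J17b, and at 63.0, 65.3 and 62.4 CPM in J27b. The groups did not overlap, with a log2 difference of −0.62 ± 0.11 (SE), ranked next after Ide among the lower genes, and an adjusted p of 0.103 by edgeR. DESeq2 called Btaf1 (adjusted p = 0.00156), as did edgeR with the 5 libraries alone (adjusted p = 0.00684). The Btaf1 difference was −0.68 between J1 lf/lf and J2 lf/lf, where it was called (adjusted p = 0.0043), and 0.04 between J17a and J27a.

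Fgfbp3, which encodes a secreted binding protein for fibroblast growth factors, lies next to Btaf1 at 36917550 to 36919615. It stood at 5.29 and 5.65 CPM in J17b, and at 9.67, 11.8 and 11.7 CPM in J27b. The J17b libraries were about level with each other and below all of J27b (log2 difference −1.01 ± 0.24, SE; adjusted p = 0.362). On the other side of Ide, at 37434810 to 37440731, lies Hhex, a homeobox transcription factor. Hhex was at 2.16 and 1.18 CPM in J17b, and at 0.625, 0.636 and 0.725 CPM in J27b. It thus ran the other way, with a log2 difference of 1.34 ± 0.41 (SE; unadjusted p = 0.00344, adjusted p = 0.663). Between J1 lf/lf and J2 lf/lf the differences were −0.68 for Fgfbp3 and 1.62 for Hhex, with adjusted p of 0.359 and 0.124. Between J17a and J27a they were −0.14 and 0.17. Hhex was named after its values were seen.

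From Fgfbp3 to Hhex, over 523 kb, 8 genes were tested, and Fgfbp3, Btaf1, Ide and Hhex had an unadjusted p under 0.05. The ends of this stretch were set at Fgfbp3 and Hhex after their values were seen. The count therefore does not measure how often such genes occur here. The other genes of the stretch did not share the pattern. Cpeb3, a regulator of mRNA translation, had a log2 difference of −0.00 and the mitochondrial ubiquitin ligase gene March5 one of −0.03, each with overlapping libraries. Kif11, a mitotic kinesin next to Ide, had a difference of −0.02. Within 5 Mb on each side of Ide, 79 other genes were tested and 12.7% had an unadjusted p under 0.05, 5 higher and 5 lower, beside 5.71% of all genes. Around Mapk8 on chromosome 14 the share was 8.45% of 71 genes, around Fmo2 on chromosome 1 it was 6.35% of 63, and around Mapk9 on chromosome 11 it was 3.41% of 88. Apart from the central genes themselves, no gene in these windows was called.

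**Figure D2:**
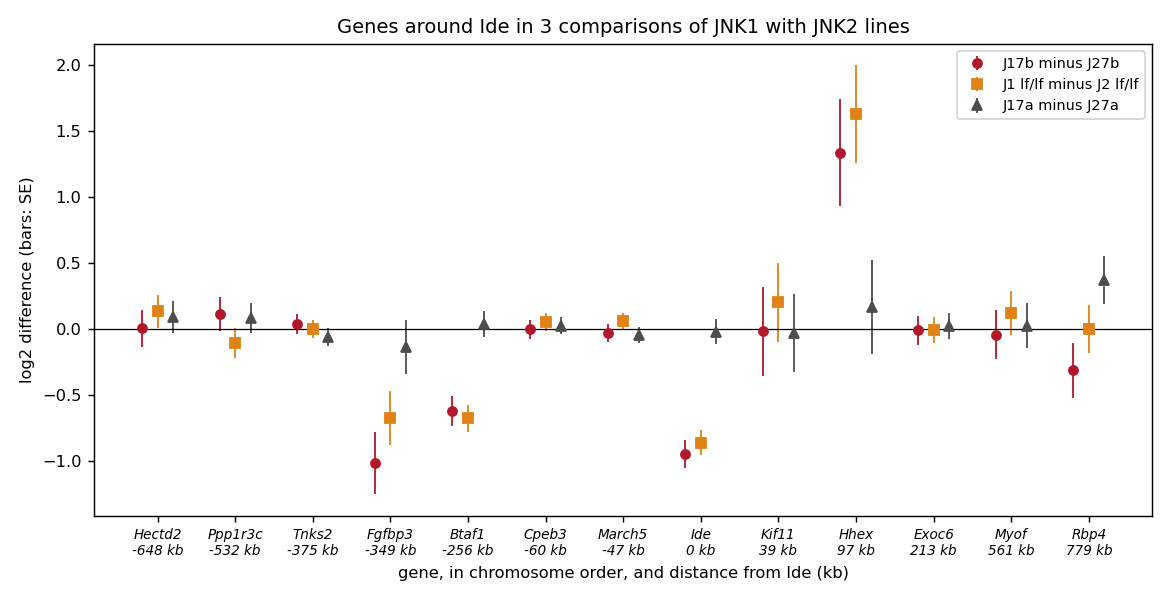
Log2 difference with its SE (y axis) for 13 genes within 800 kb of Ide and with a mean log2 CPM of at least 0, in chromosome order with the distance from Ide in kb (x axis). J17b minus J27b is in red, J1 lf/lf minus J2 lf/lf in orange and J17a minus J27a in grey. Fgfbp3, Btaf1 and Ide lie below 0 and Hhex above it in the first 2 comparisons, and the grey points of these genes lie near 0.

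None of the genes ranked below Fmo2 on the higher side was called by edgeR with all 20 libraries. Mt2 and Mt1 encode metallothioneins, which bind zinc and copper and are induced by metals and glucocorticoids. Mt2 was at 205.5 and 203 CPM in J17b, and at 107, 134 and 116 CPM in J27b. Mt1 was at 331 and 353 CPM in J17b, and at 217, 257 and 218 CPM in J27b. The J17b libraries lay above all of J27b for both genes, which stand next to each other on chromosome 8, with log2 differences of 0.78 and 0.57 (adjusted p = 0.362 and 0.381, edgeR).

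Reln, the secreted glycoprotein that guides neuron positioning, and Lama2, a laminin chain of basement membranes, were also higher in J17b without passing the test. Reln was at 204 and 227 CPM in J17b, and at 135, 146 and 148 CPM in J27b. Lama2 was at 23.0 and 27.7 CPM in J17b, and at 20.98, 18.3 and 17.2 CPM in J27b. The groups did not overlap for either, but the gap was narrow for Lama2. The log2 differences were 0.59 and 0.43 (adjusted p = 0.362 and 0.381, edgeR). Reln was called with DESeq2 (adjusted p = 0.0498) and by edgeR with the 5 libraries alone (adjusted p = 0.00433). Reln is also a product of cerebellar granule cells, whose genes are described below.

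Per3, a period gene of the circadian clock, was at 42.0 and 45.8 CPM in J17b, and at 33.4, 31.4 and 34.5 CPM in J27b. Its log2 difference was 0.41 (adjusted p = 0.362), and 1 of 18 clock genes had an unadjusted p under 0.05, Per3 itself. The other core clock genes gave small values, such as 0.08 for Clock, 0.13 for Per2 and −0.19 for Arntl. In J17a against J27a the Per3 difference was −0.22, and the gap between the 2 differences was 0.63 (adjusted p = 0.234).

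The remaining higher genes by p were Mtus2, Brwd3, Zfp583, Lpp, Alms1 and Pou2f1, each with an adjusted p of 0.362. Mtus2, a microtubule-associated protein, was at 76.5 and 89.2 CPM in J17b, and at 64.2, 60.3 and 63.6 CPM in J27b. The libraries of the other groups ran from 65.4 to 86.8 CPM for Mtus2. They ran from 12.4 to 14.0 CPM for Brwd3 and from 3.32 to 5.63 CPM for Zfp583. For these genes each J27b library lay below every library of the other groups. Lpp, a focal adhesion protein, was at 25.7 and 33.6 CPM in J17b, and at 17.8, 20.5 and 20.6 CPM in J27b. Alms1, a protein of centrosomes and cilia, was at 26.0 and 35.3 CPM in J17b, and at 20.3, 20.6 and 21.4 CPM in J27b. In all 3 the J17b libraries were higher, and J17b replicate 2 was the higher of that pair. Their log2 differences were 0.40, 0.60 and 0.56, and those of Brwd3, Zfp583 and Pou2f1 were 0.49, 0.80 and 0.42. Of the 12 higher genes, 10 had their highest J17b value in replicate 2. Over the 540 higher genes at an unadjusted p under 0.05, that was so for 424. On the lower side, replicate 2 was the lower J17b library for 208 of the 377 genes at that threshold. Of the 12 lower genes by p, replicate 2 was above replicate 1 for 9.

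Among the lower genes, Gbx2, a homeobox factor of the developing thalamus, had the largest difference. It was at 1.94 and 3.44 CPM in J17b, and at 7.99, 8.88 and 8.94 CPM in J27b. J17b was at 31.3% of J27b, a log2 difference of −1.68 ± 0.35 (SE; adjusted p = 0.276, edgeR). Wild type stood between them at a mean of 3.81 CPM, and the 15 libraries of the other groups ran from 2.03 to 7.43 CPM, so all 3 J27b libraries were above every library outside J27b. DESeq2 called Gbx2 (adjusted p = 0.00595), as did edgeR with the 5 libraries alone (adjusted p = 0.00894).

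Rasd1, Nrn1 and Drd5 were among the 12 lower genes by p. None was called by edgeR with all 20 libraries, while DESeq2 called Rasd1 (adjusted p = 0.0264). Rasd1, a small GTPase induced by dexamethasone, was at 8.78 and 11.2 CPM in J17b, and at 15.5, 25.1 and 17.4 CPM in J27b. Nrn1, a neuritin that promotes neurite growth, was at 132 and 109 CPM in J17b, and at 154, 156 and 163 CPM in J27b. Drd5, a dopamine receptor, was at 2.12 and 2.78 CPM in J17b, and at 5.06, 5.33 and 4.19 CPM in J27b. None of the 3 overlapped between the groups, and the log2 differences were −0.95, −0.39 and −0.99 (adjusted p = 0.362, 0.362 and 0.396).

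The other lower genes by p were Tmem254a, Dpp9, Slc38a5 and Aven. Tmem254a lies on chromosome 14 at 25923300 to 25927672, outside the 5 Mb window around Mapk8. It was at 36.0 and 35.4 CPM in J17b, and at 55.5, 47.6 and 48.3 CPM in J27b. The libraries of the other groups ran from 35.1 to 46.6 CPM. J17b lay within that range, and each J27b library was above every library outside J27b. Near-identical copies of Tmem254a make its counts uncertain. Dpp9, a dipeptidyl peptidase, was at 71.4 and 70.3 CPM in J17b, and at 89.1, 94.7 and 94.6 CPM in J27b. The log2 differences were −0.50 for Tmem254a and −0.39 for Dpp9, and −1.21 for the amino acid transporter gene Slc38a5 and −0.57 for the apoptosis inhibitor gene Aven, which were lower than 10 CPM in all 5 libraries.

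The largest differences that did not overlap were less secure than the ranks by p. Cdr1, a brain transcript, was at 68.7 and 529 CPM in J17b, and at 59.4, 65.1 and 54.8 CPM in J27b. Replicate 2 of J17b was 7.70-fold above replicate 1, and without it the log2 difference of Cdr1 was 0.20 in place of 2.32. The locus also gives an antisense transcript, and without a stated strand setting the reads of the 2 strands cannot be told apart. Sspo, the subcommissural organ protein spondin, rested on the other J17b library, with 16.9 and 2.64 CPM beside 1.78, 1.98 and 1.13 CPM, and its difference was 0.68 without replicate 1 in place of 2.58. Ltbp2, a protein of elastic fibres, was at 7.497 and 15.03 CPM beside 3.42, 4.55 and 4.79 CPM, with 1.404 for all 5 libraries and 0.82 without J17b replicate 2. Tph2, the serotonin-synthesis enzyme of raphe neurons, was at 15.6 and 16.96 CPM in J17b, and at 4.93, 4.15 and 10.2 CPM in J27b, a difference of 1.35 ± 0.61 (SE; adjusted p = 0.872). On the lower side, C3, Tnnt1 and Ntn5 had differences of −1.18, −1.25 and −1.14, with adjusted p from 0.813 to 0.872.

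**Figure D3:**
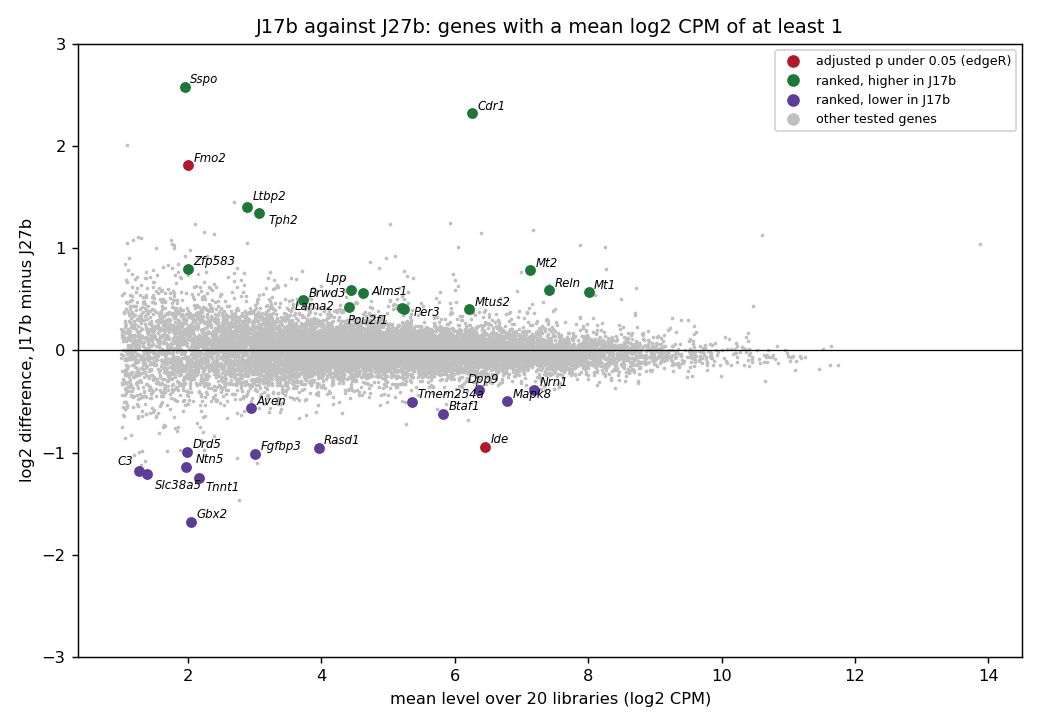
Log2 difference J17b minus J27b (y axis) against the mean log2 CPM over 20 libraries (x axis) for the 13089 genes with a mean of at least 1. The called genes Ide and Fmo2 are in red, ranked genes higher in J17b in green and lower in purple, and 2 genes lie outside the axis. Ide stands out at a high level, where most other genes lie closer to 0, though Cdr1 lies further from 0 at a similar level.

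The ranked genes were then read in the comparisons that share no library with these. Of the 12 genes higher in J17b by p, 9 had the same sign in J1 lf/lf against J2 lf/lf and 4 had it in J17a against J27a. Of the 12 lower genes, 11 had the same sign in the lf/lf lines and 6 in the 7a lines. Of all tested genes, 50.3% had a positive difference in the lf/lf lines and 49.4% in the 7a lines. With an unadjusted p under 0.05 in the same direction there were 4 higher genes (Fmo2, Mt2, Per3 and Mt1) and 4 lower genes (Ide, Btaf1, Gbx2 and Fgfbp3) in the lf/lf lines, and none in the 7a lines, where Per3 and Slc38a5 passed it in the opposite direction. Of all genes, 495 higher (3.08%) and 530 lower (3.3%) passed that threshold in the lf/lf lines. Ide, Btaf1 and Fgfbp3 lie close together on chromosome 19, as Mt1 and Mt2 do on chromosome 8, so they may not count as separate genes here. In the 7a lines 2.88% of all genes were higher and 2.32% lower at that threshold, 5.19% in all, while edgeR passed 0 genes (0%) after adjustment, limma 0 and DESeq2 3. In J1 lf/lf against J2 lf/lf, 13 genes passed after adjustment (0.0809%). Against Wild type, 4 genes (0.0249%) were called in J17b, with Ide, Mapk8 and Btaf1 lower and Rn45s higher. Rn45s was also higher in J27b than in Wild type, by 1.95 on the log2 scale (adjusted p = 0.598, edgeR). It ran from 17321 to 54698 CPM in the 10 libraries with a title number above 10 and from 3066 to 6718 CPM in the 10 others. J17b and J27b are all among the former and Wild type all among the latter, so title number and line cannot be told apart against Wild type. The J27a libraries are among the former. J17a is split, with replicate 1 among the latter (6560 CPM) and replicates 2 and 3 among the former (18290 and 17321 CPM). The 7a comparison thus spans this split, and the lf/lf libraries are all among the latter. Against Wild type, none (0%) was called in J27b by edgeR, where 6.94% had an unadjusted p under 0.05. No other tool was run for J27b against Wild type.

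No gene in the lists of the JNK pathway was called, and the medians of these lists ran from −0.10 to 0.01 on the log2 scale. Single members reached 0.92 among the scaffolds and −0.87 among the AP-1 and ATF factors, neither at an unadjusted p under 0.05. Of 24 tested kinases upstream of JNK, 2 had an unadjusted p under 0.05, both higher, and the list median was 0.01 on the log2 scale. Of all tested genes, 3.36% were higher at that threshold. Map3k2, which activates JNK through MKK4 and MKK7, was at 49.8 and 52.2 CPM in J17b and at 38.02, 41.4 and 46.7 CPM in J27b. Map3k13, a kinase of axon injury signalling, was at 33.9 and 41.4 CPM beside 32.3, 33.6 and 29.5 CPM. These were differences of 0.28 and 0.24 (adjusted p = 0.813 and 0.852). The direct JNK activators Map2k4 and Map2k7 gave −0.06 and −0.04, with overlapping libraries. Among 15 scaffold genes, which hold the kinases together, only Flna had an unadjusted p under 0.05 (0.26), with the higher value from J17b replicate 2. The JIP scaffold genes Mapk8ip1, Mapk8ip2 and Mapk8ip3 gave −0.14, −0.13 and −0.06.

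Of 11 phosphatases that act on JNK and other MAP kinases, Dusp5 alone had an unadjusted p under 0.05. It was at 10.8 and 13.9 CPM in J17b, and at 7.20, 8.57 and 6.93 CPM in J27b, a difference of 0.71 (adjusted p = 0.837). Among 11 AP-1 and ATF transcription factors, 8 had negative differences and the median was −0.10. The libraries did not overlap for 4 of the 11, all lower in J17b. Of all tested genes, 13.7% did not overlap with J17b lower. Jun itself, the substrate that gives JNK its name, was at 60.4 and 57.8 CPM in J17b, and at 61.0, 62.5 and 65.7 CPM in J27b, and Atf2 gave −0.08. Fosl2 was the 1 member with an unadjusted p under 0.05, at −0.33. Of 16 cytoskeletal substrates none had one, with −0.19, −0.32 and −0.28 for the neurofilament genes Nefl, Nefm and Nefh, and −0.19 for the microtubule regulator gene Stmn1. The ERK and p38 kinases had a median of −0.01, and none of 16 had an unadjusted p under 0.05.

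Insulin and IGF signalling was listed because Ide belongs to it. Of 24 genes, Ide was called, and Insr, Igf2r and Igfbp3 had an unadjusted p under 0.05 with higher values in J17b. Of all tested genes, 3.36% were higher at that threshold. Insr, the insulin receptor, was at 90.5 and 90.9 CPM in J17b, and at 76.9, 83.6 and 79.8 CPM in J27b. Igf2r, the receptor that clears IGF2, was at 60.9 and 70.8 CPM, and at 55.9, 57.6 and 57.1 CPM. These groups did not overlap, with differences of 0.18 and 0.21 (adjusted p = 0.813 for each). The list median was 0.01. The 21 amyloid genes had a median of 0.02, and no member but Ide had an unadjusted p under 0.05.

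Of 16 genes of cerebellar neurons, 15 had a positive difference, 11 had an unadjusted p under 0.05, all of them higher in J17b, and none was called. The median was 0.77, beside −0.0016 for all genes. Fat2, a cadherin of granule cells, was at 164 and 267 CPM in J17b, and at 84.9, 97.7 and 103 CPM in J27b. Gabra6, the GABA receptor subunit of granule cells, was at 94.7 and 141 CPM, and at 48.7, 54.6 and 55.8 CPM. Pcp2 of Purkinje cells was at 47.7 and 50.5 CPM, and at 25.4, 30.7 and 30.2 CPM. Genes of granule and Purkinje cells thus both stood higher in J17b, and 14 of the 16 did not overlap between the groups. Of all tested genes, 3.36% were higher at an unadjusted p under 0.05, and 13.6% did not overlap with J17b higher. The log2 differences of these 3 were 1.18, 1.15 and 0.77 (adjusted p = 0.792, 0.813 and 0.872).

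The summed level of the cerebellar list was 3459 and 4525 CPM in J17b and 2452 to 2869 CPM in J27b, and ran from 2452 to 4338 CPM in the other 15 libraries. J17b replicate 2 lay above all the other 15 libraries, and J17b replicate 1 and the J27b libraries lay within their range. Without J17b replicate 2 the median was 0.46, and without replicate 1 it was 0.83. In J17a against J27a the median was −0.23 and 1 of 16 differences was positive. In J1 lf/lf against J2 lf/lf the median was 0.12. When only these 5 libraries entered the fit, 35 genes were called, 23 higher and 12 lower, and the higher ones included the cerebellar genes Cbln1, Cbln3, En2, Pcp2, Neurod1 and Gng13. Gng13 is in no list and was named after that fit was seen. The part of tissue composition in the difference between J17b and J27b was not tested.

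**Figure D4:**
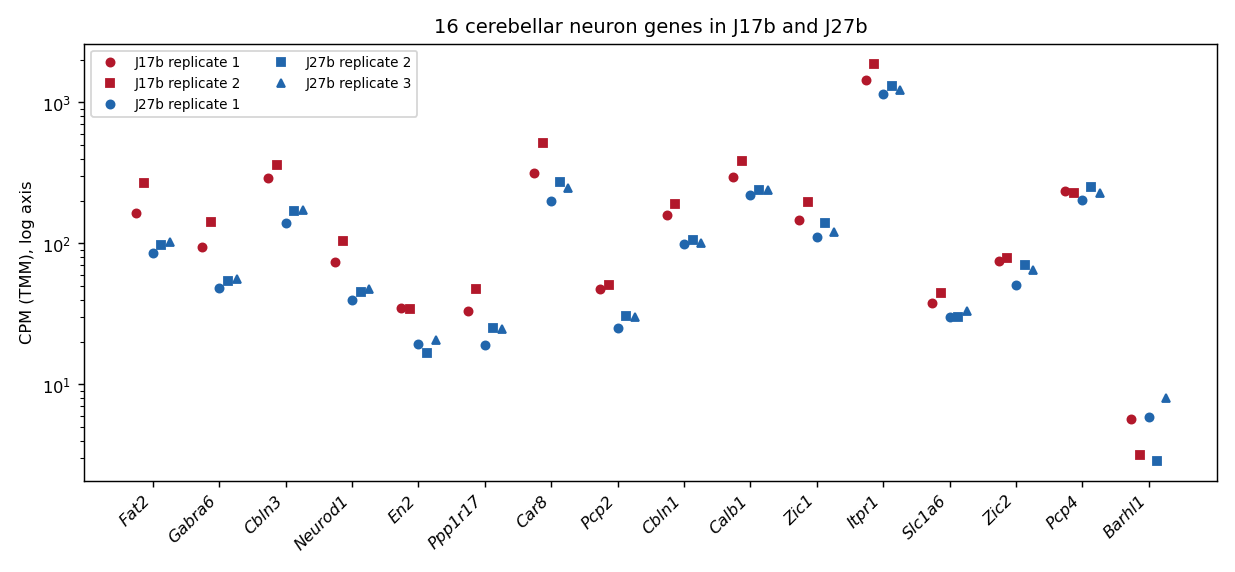
CPM with TMM factors on a log axis (y axis) of 16 genes of cerebellar neurons (x axis) in the 5 libraries, ordered by log2 difference. Red marks are J17b and blue marks J27b, with a symbol for each replicate. Both J17b libraries lie above all 3 J27b libraries for 14 genes, and overlap with them for Pcp4 and Barhl1.

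Other brain regions gave smaller values, some with the opposite sign. Of 14 thalamic and subcortical glutamatergic genes, 10 were negative with a median of −0.35, and Gbx2 alone had an unadjusted p under 0.05. Tcf7l2, a Wnt effector abundant in thalamus, was at 30.03 and 39.02 CPM in J17b, and at 63.7, 52.3 and 54.2 CPM in J27b, a difference of −0.72 (adjusted p = 0.874). Of 14 forebrain glutamatergic genes, 13 were negative with a median of −0.17, and Nrn1 and Neurod6 had an unadjusted p under 0.05. Of all tested genes, 2.35% were lower at that threshold. By library, the median log2 level of the forebrain list relative to the mean of 20 libraries was −0.0687 and −0.322 in J17b. It was 0.0727, 0.00595 and −0.0747 in J27b, so J17b replicate 1 lay within the J27b range. Of 14 striatal genes, all were positive with a median of 0.17, yet the libraries overlapped for every one of them.

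Of 14 heat shock genes tested, all had a negative difference, 4 had an unadjusted p under 0.05 and none was called. The libraries overlapped for 5 of them, and the median was −0.11, beside −0.0016 for all genes. Of all tested genes, 2.35% were lower at an unadjusted p under 0.05, and 13.7% did not overlap with J17b lower. Of 20 genes of the mitochondrial respiratory chain, 19 had a negative difference with a median of −0.09, and none had an unadjusted p under 0.05. By library, the median log2 level of these 20 genes relative to the mean of 20 libraries was 0.000891 and −0.104 in J17b. It was 0.0319 to 0.0435 in J27b, so J17b replicate 2 lay furthest below. Hsph1, a large co-chaperone of HSP70, was at 301 and 276 CPM in J17b, and at 343, 354 and 345 CPM in J27b. Hspa1b, an inducible HSP70, was at 13.6 and 12.1 CPM in J17b, and at 23.2, 19.96 and 28.6 CPM in J27b. Both J17b libraries lay below all of J27b for these genes, with differences of −0.27 and −0.90 (adjusted p = 0.627 and 0.813). Hspa1b and its neighbour Hspa1a are near-identical, so the split of reads between them is uncertain. Dnaja1 and Hspb1 gave −0.19 and −0.66. The list median was 0.07 in J17a against J27a and 0.03 in J1 lf/lf against J2 lf/lf. In the glucocorticoid list, 11 of 16 were positive with a median of 0.16, and Mt1, Mt2, Tsc22d3 and Sult1a1 had an unadjusted p under 0.05. These 4 were higher in J17b, as were 3.36% of all tested genes at that threshold. Fkbp5 and Sgk1, which glucocorticoids induce, gave 0.06 and 0.28 with overlapping libraries.

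Astrocyte genes had a median of 0.04, with the glutamate transporter gene Slc1a3 at 0.30 and S100b at 0.40 (adjusted p = 0.663 and 0.813). Myelin genes had −0.06 and microglia genes −0.03, and endothelial and mural genes 0.00. Meningeal and fibroblast genes had −0.10. Red blood cell genes had 0.33 over 8 genes, 7 of them with overlapping libraries and none at an unadjusted p under 0.05. Beside Fmo2, which J17b replicate 1 held at the highest level, the summed endothelial and mural genes were at 450.0 and 482 CPM in J17b and at 458 to 475 CPM in J27b. Of 42 lists, 22 had a positive median, and 588 of 603 listed genes were tested, of which Ide was the 1 called. Library medians of the lists did not overlap between the groups for 11 of the 42 lists, while 27.3% of all tested genes did not overlap.

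J17b replicate 2 carried high levels of nuclear and ribosomal transcripts. Malat1, a nuclear long noncoding RNA, was at 1749 and 4698 CPM in J17b, and at 1159, 1606 and 1653 CPM in J27b. Kcnq1ot1, an imprinted noncoding RNA, was at 30.3 and 103 CPM, and at 22.6, 27.7 and 34.5 CPM. Rn45s, the ribosomal RNA precursor, was at 23400.4 and 54698 CPM, and at 18239, 20550.1 and 18173 CPM. J17b replicate 2 was the highest library for all 3, at 2.34-fold to 3.41-fold replicate 1, and the adjusted p was 0.813 to 0.846. The median of the 7 tested genes of this kind was 1.01, and 0.10 without J17b replicate 2. Leaving Rn45s out of the counts left Ide and Fmo2 called. The part of these transcripts in the other differences was not tested.

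**Figure D5:**
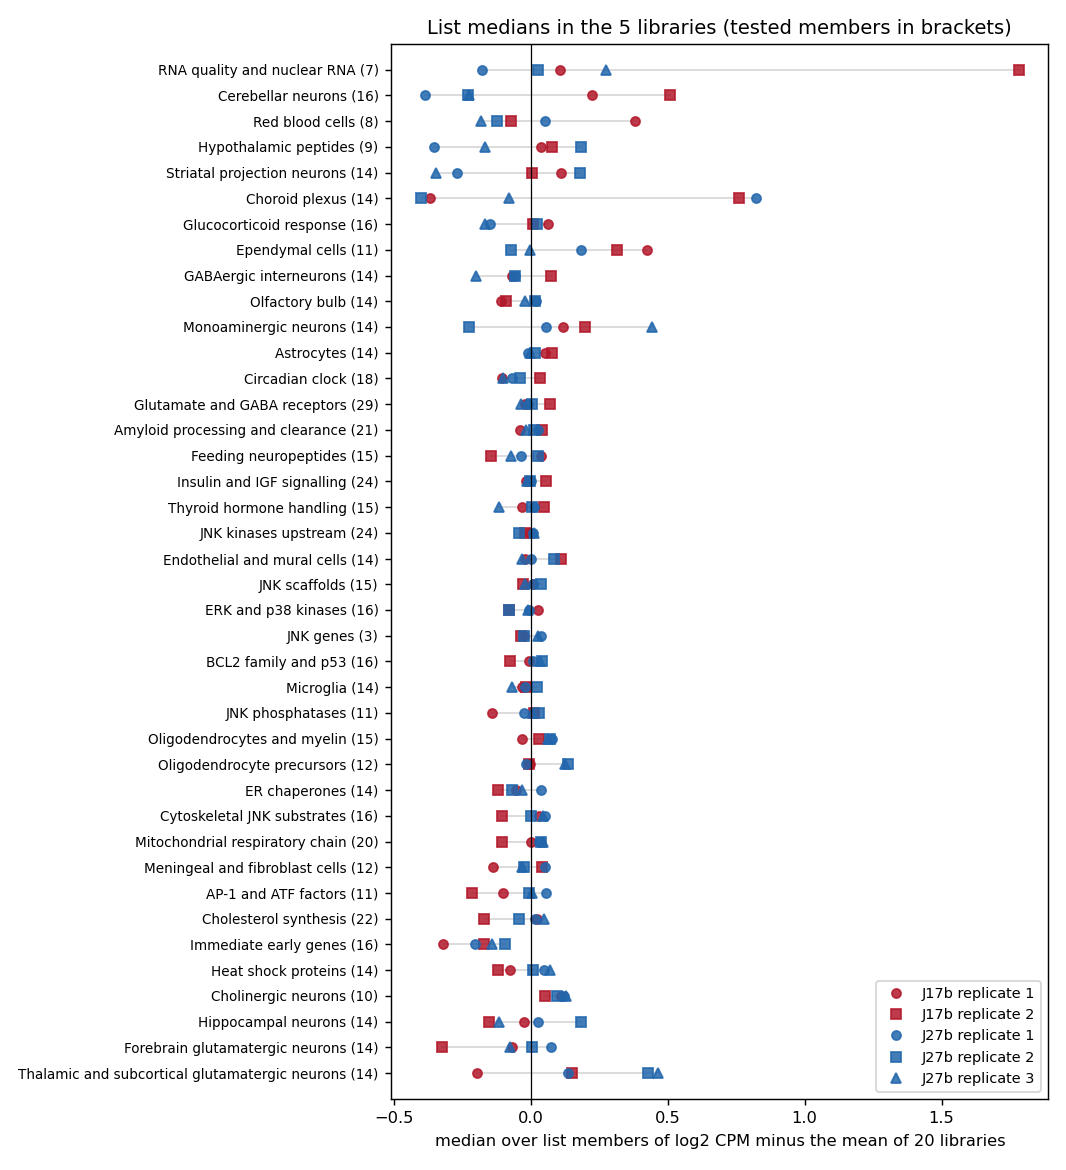
Median over the members of 40 gene lists of log2 CPM minus the mean of the 20 libraries (x axis), with the tested members in brackets and the lists ordered by log2 difference (y axis). Red marks are J17b and blue marks J27b, with a symbol for each replicate, and 2 lists of genes with counts near 0 are left out. J17b replicate 2 lies apart for nuclear RNA, and both J17b libraries lie above all of J27b for cerebellar neurons.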

How the data were processed

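Brain RNA treated with DNase was made into poly(A)-enriched libraries and sequenced as paired ends of 150 bp, per the labels' protocols. The estimated counts per gene and the TPM values (scaled to the same total in each library) that the authors deposited were made with cutadapt and RSEM on mm10, per the submitters' processing notes. Tool versions, annotation and strand setting were not given in the sources used here, so overlapping, antisense and near-identical genes are uncertain. RSEM splits reads that match several genes, and 4.11% of values were not whole.

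Samples were grouped by their titles. Estimated counts were rounded and tested with edgeR 4.0.16 (R 4.3.3) using TMM factors (0.975 to 1.03), the filterByExpr filter and robust quasi-likelihood fits. The fit held all 20 libraries and 7 group means, so that J17b, with 2 libraries, shared an estimate of the spread. In all, 6 contrasts were tested: J17b against J27b, J17a against J27a, J1 lf/lf against J2 lf/lf, the difference between the first 2, and J17b and J27b against Wild type. P-values were two-sided, adjusted by Benjamini-Hochberg over 16063 genes, with a threshold of 0.05. CPM values use TMM factors. The 42 gene lists were described by counts and medians without a test.

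The genes named were those called, the 12 with the smallest p and the 5 with the largest difference each way among genes with a mean log2 CPM of at least 1 and no overlap between groups, and the JNK genes, Ide, Btaf1, Rn45s and the leading members of lists. The comparison, lists and rules were chosen with earlier results of these data known. Other list members were chosen after their values were seen. Positions are from GENCODE mouse release 21, which held 15359 of the tested genes. Alternatives were DESeq2 1.42.0, its size factors, no filter, fewer libraries in the fit, the replicate block, limma 3.58.1 on log2 TPM with a pseudocount of 1 or 0.1, Rn45s left out and each library left out. The tests were checked on simulated counts, and no pair of replicates agreed within sampling noise.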

Additional observations from a re-analysis of the deposited data

Results flagged for a closer look

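The difference of Ide between JNK1 and JNK2 lines was not the same in the 7b and the 7a lines. On the log2 scale it was −0.95 for J17b minus J27b and −0.02 for J17a minus J27a, and the difference between these was −0.92 ± 0.14 (SE; adjusted p = 0.0267, edgeR, over 16063 genes). Both J17b libraries lay below all 3 J27b libraries, and the J17a and J27a libraries overlapped. The result kept its direction in all 19 alternatives run. Its adjusted p was above 0.05 with the replicate block (0.0701), with limma (0.128 to 0.348), and without any 1 library other than J17a replicate 1 and J17b replicate 2 (0.0714 to 0.164). The J17a and J27a libraries were at 79.1 to 91.1 CPM, below the Wild type libraries at 105 to 113 CPM. Of the J17a, J27a, J17b and J27b libraries, only J17a replicate 1 has a title number not above 10.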

How the results depend on the processing

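For J17b against J27b, the count of called genes was 2 with edgeR, 13 with DESeq2, 35 with only the 5 libraries in the fit, 9 with only title numbers above 10, 1 with limma at either pseudocount and 4 with limma without a filter. Leaving out a library gave 0 to 2, with 0 without J17b replicate 1. Ide was called in 15 of 16 alternatives and Fmo2 in 7. Mapk8 was called with DESeq2 (−0.50), with the 5 libraries alone (−0.50) and with title numbers above 10 (−0.50). DESeq2 also called the ranked genes Btaf1, Gbx2, Mt2, Tmem254a, Rasd1, Fgfbp3, Ltbp2, Mtus2 and Reln. The Mapk10 difference changed sign to 0.02 with limma (0.0191, 0.0193 and, without a filter, 0.0191) and to 0.00917 without J27b replicate 1, the highest of −0.0313 to 0.00917 with a library left out. For the difference between the 7b and the 7a comparison, the count was 1 with edgeR, 17 with DESeq2, 0 with limma at either pseudocount and 2 without a filter, and 0 to 11 with a library left out. For J17a against J27a it was 0, then 3 with DESeq2, 1 with limma without a filter and 0 to 2 with a library left out. For J1 lf/lf against J2 lf/lf it was 13, then 73 with DESeq2, 6 with limma at either pseudocount, 4 without a filter and 3 to 29 with a library left out. The cause of these shifts was not tested. The groups share replicate numbers 1 and 2, and deviations of same-numbered libraries from group means had correlations of 0.027 and −0.0721. The deviations of 2 J17b libraries mirror each other, so this check cannot decide if same-numbered libraries were paired. With the replicate block the count was 1 for J17b against J27b (Ide, with Fmo2 at an adjusted p of 0.133) and 0 for the difference between the comparisons. Over the 32 named genes other than the JNK genes, all 511 values under alternatives kept their direction, and 33 crossed the threshold. Ide and Fmo2 account for the 10 that lost a call, and 23 gained one. The J17b and J27b libraries did not overlap for these genes, and most were picked by that rule, so their direction could hardly change. The list medians kept their sign with each of the 5 libraries left out for 24 of 42 lists. With 2 J17b libraries, a J17b library left out leaves 1, which is assumed to vary like the other groups.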
